A study of Mus musculus with 96 samples.

Results

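Trimethylation of lysine 27 on histone H3 (H3K27me3) was compared between neuronal and non-neuronal nuclei of the wild-type (WT) mouse hippocampus. The peaks of the 3 WT NeuN+ libraries (4132 consensus windows) were set against those of the 3 WT NeuN- libraries (1698 consensus windows), 6 of the 96 samples of the series. NeuN is the protein of Rbfox3 and marks the nuclei of most neurons, so the NeuN+ sort holds neurons and the NeuN- sort a mixture of glial, vascular and other nuclei. The WT mice were of the C57BL/6N background and 6 months old, untreated, and carried intact Ogg1 and Mutyh. Hippocampi of several animals were pooled for a sort, so that each library is a pool and p-values measure only the spread between pools. Windows were taken as overlapping when they shared at least 1 bp, and levels were compared only after scaling within each library, because the consensus windows of both fractions had been called apart from each other and over libraries of all genotypes. In each fraction, a mark on fewer nuclei and less of the mark per nucleus cannot be told apart.

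H3K27me3 is laid down by Polycomb repressive complex 2 (PRC2), whose core subunits are Suz12, Eed and the methyltransferase Ezh2 or Ezh1. The mark is known for CpG-rich promoters of silent developmental regulators, and for genes of other lineages in a differentiated cell. H3K4me3 marks promoters that are active or poised, and a promoter with both marks in the same cells is called bivalent. A sorted fraction that mixes cell types can show both marks when they lie in different cells.

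The stretches below come from windows annotated as promoter that were found in a single fraction. Rbfox3 and Nefh had promoter windows only in the NeuN- table, and Oaf and Olig2 only in the NeuN+ table. Each stretch lies in the 401 bp counting window, is free of annotated untranslated sequence, is written 5′ to 3′ on the strand of the gene from GRCm38, and has every CpG in capitals. Coding sequence was not removed, so a CpG count need not describe the promoter itself. The Rbfox3 window lies 3.35 kb downstream of the annotated gene start.
Rbfox3 (NeuN- window, chr11:118908096-118908395, minus strand): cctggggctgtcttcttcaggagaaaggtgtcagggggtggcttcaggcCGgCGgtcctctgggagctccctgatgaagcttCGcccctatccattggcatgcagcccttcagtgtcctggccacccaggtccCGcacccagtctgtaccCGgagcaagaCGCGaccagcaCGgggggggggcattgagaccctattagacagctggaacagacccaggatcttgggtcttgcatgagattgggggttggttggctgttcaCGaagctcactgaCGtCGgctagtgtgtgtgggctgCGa
Nefh (NeuN- window, chr11:4947416-4947715, minus strand): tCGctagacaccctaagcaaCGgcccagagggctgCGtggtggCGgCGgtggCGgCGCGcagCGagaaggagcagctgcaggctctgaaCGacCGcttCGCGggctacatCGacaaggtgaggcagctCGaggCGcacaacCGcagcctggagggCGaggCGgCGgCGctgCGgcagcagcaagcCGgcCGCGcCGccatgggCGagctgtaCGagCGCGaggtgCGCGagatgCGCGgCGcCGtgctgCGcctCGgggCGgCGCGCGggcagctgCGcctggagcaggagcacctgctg
Oaf (NeuN+ window, chr9:43239912-43240207, minus strand): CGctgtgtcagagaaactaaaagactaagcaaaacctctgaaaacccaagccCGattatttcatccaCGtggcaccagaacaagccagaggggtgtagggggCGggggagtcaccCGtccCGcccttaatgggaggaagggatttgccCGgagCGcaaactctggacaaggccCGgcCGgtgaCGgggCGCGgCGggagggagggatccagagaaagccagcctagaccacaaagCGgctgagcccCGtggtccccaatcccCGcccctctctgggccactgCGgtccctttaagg
Olig2 (NeuN+ window, chr16:91226066-91226344, plus strand): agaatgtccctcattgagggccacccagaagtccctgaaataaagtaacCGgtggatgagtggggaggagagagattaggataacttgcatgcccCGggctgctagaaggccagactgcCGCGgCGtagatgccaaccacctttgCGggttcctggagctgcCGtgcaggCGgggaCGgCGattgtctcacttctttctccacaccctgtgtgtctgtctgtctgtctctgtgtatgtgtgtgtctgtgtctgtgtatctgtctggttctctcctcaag
The Nefh stretch held 43 CpG in 300 bases, the Oaf stretch 18 in 296, the Rbfox3 stretch 12 in 300 and the Olig2 stretch 10 in 279.

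Depth was low, and it differed in kind between the fractions. The NeuN+ libraries had 24158 to 34712 reads in peaks, of which 7.23% to 17.3% lay in repeat windows, that is windows with at least 50% soft-masked bases. The NeuN- libraries had 19132 to 51422 reads, of which 61.8% to 78.6% lay in repeat windows, and a single window took 53.5% to 68.7% of all reads. The NeuN- libraries were also less alike. Over the 222 non-repeat shared windows tested, Spearman's rho was 0.513 to 0.601 between NeuN+ libraries, 0.216 to 0.298 between NeuN- libraries and 0.303 to 0.452 between the fractions, and every window of the NeuN- table alone rests on these NeuN- libraries. The repeat windows left 21293 to 32203 reads in non-repeat windows for NeuN+ and 7303 to 11029 for NeuN-. The median window had 4 to 6 reads in a NeuN+ library and 2 to 3 in a NeuN- library. Levels are given below as reads per 10000 reads in non-repeat windows of the same library. They are not comparable between tables. The labels were checked with H3K4me3. Of 20 neuron markers, 19 had a promoter peak in the H3K4me3 NeuN+ table and 4 in the NeuN- table. Of all 13117 genes of the tables, 85.0% and 23.0% had one, so the neuron list lay near these shares. Of 14 astrocyte markers, 7 had one in the NeuN+ table and 3 in the NeuN- table, each of the 3 in both. Of 16 oligodendrocyte markers, Nkx6-2 and Olig1 had one only in the NeuN- table, but 4 had one only in the NeuN+ table. The H3K4me3 NeuN- table was much the smaller (3270 against 12628 peaks), and none of 14 microglia or 14 vascular markers had a promoter peak in it, so the glial identity of the NeuN- libraries rested on few genes.

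Few H3K27me3 windows were shared. One-to-one overlap was found for 249 windows, 24 of them repeat windows. Outside repeats, the NeuN+ table held 3711 windows, of which 3483 had no overlapping NeuN- window, and the NeuN- table held 1604, of which 1377 had no overlapping NeuN+ window. The windows are counting windows rather than the extent of a domain, and many of these lay close to a window of the other fraction. With a NeuN+ or NeuN- window within 5 kb counted as shared, 2943 NeuN+ and 831 NeuN- windows remained in a single table. Reads behind them were sparse. At least 3 reads in every WT library were found at 1416 of the 3483 NeuN+ windows and at 207 of the 1377 NeuN- windows, while 30 and 60 windows had no read in any WT library of their table.

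Shared windows lay mostly at promoters. Of the 228 shared non-repeat windows of the NeuN+ table, 62.3% were annotated as promoter, 18.0% as gene body and 19.7% as distal intergenic. The windows found in NeuN+ nuclei alone were distal intergenic in 42.0% and promoter in 26.4%. Those found in NeuN- nuclei alone were promoter in 47.7% and distal intergenic in 26.0%. Sequence followed the same order, with a median GC content of 55.7% and 15 CpG in shared windows, 52.9% and 8 in NeuN- windows, and 48.1% and 5 in NeuN+ windows. Among windows with at least 3 reads in every WT library of the table, the promoter share was 38.4% for NeuN+ alone and 71.5% for NeuN- alone. Of the shared windows with these reads, 120 of 172 in the NeuN+ table and 45 of 71 in the NeuN- table were promoter. With this read minimum the shared windows did not have the highest promoter share.

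**Figure D1:**
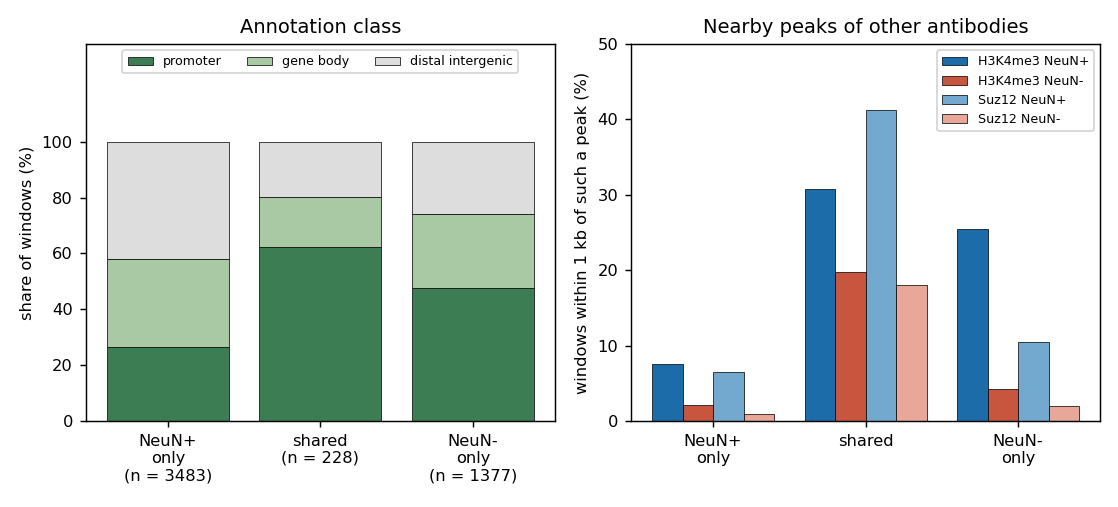
Left, share of non-repeat H3K27me3 windows in each annotation class (stacked bars, %), for windows of the NeuN+ table only, shared windows (counted in the NeuN+ table) and windows of the NeuN- table only. Right, share of the same windows within 1 kb of a peak of another antibody; shared windows lay next to H3K4me3 in NeuN+ nuclei in 30.7%, NeuN- windows in 25.4% and NeuN+ windows in 7.58%.

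The share of reads per class was compared over libraries. Each fraction was counted over its own non-repeat windows, of which 28.6% were promoter in the NeuN+ table and 49.8% in the NeuN- table. All libraries of a fraction share that list, so a difference in read share cannot be told apart from the make-up of the lists. Promoter windows took 35.1%, 38.9% and 39.2% of the non-repeat reads in the NeuN+ libraries and 55.9%, 33.4% and 38.5% in the NeuN- libraries. The means were 37.7% ± 2.28 (SD, n = 3) and 42.6% ± 11.8 (SD, n = 3), and the groups overlapped (exact permutation p = 0.9, two-sided). NeuN- replicate 1 lay apart from the other NeuN- libraries. Distal intergenic windows took 34.7%, 33.9% and 34.7% in NeuN+ and 24.4%, 31.5% and 29.0% in NeuN-, without overlap (exact permutation p = 0.1, the smallest that 3 against 3 can give, and 0.3 after adjustment over 3 classes). These shares depended on a few windows with very many reads. A distal window near Lrrc4c had 152, 1113 and 672 reads in the NeuN- libraries, and an exon window there had 0, 2095 and 1211. Without windows over 1% of the reads of any library, an alternative chosen after seeing the data, the promoter share was 38.7% ± 1.06 in NeuN+ and 56.9% ± 2.25 in NeuN- (SD, n = 3), and the 3 libraries of each fraction did not overlap (exact permutation p = 0.1).

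At shared windows the question was whether the level differed between fractions. Of 245 windows tested with limma, 3 passed an adjusted p of 0.05 (1.22% of those tested), all higher in NeuN- nuclei and all repeat windows. Their nearest genes were Mir101c, Rab10os and Gm5458. The Mir101c window had 3, 0 and 0 reads in the NeuN+ libraries and 31, 253 and 167 in the NeuN- libraries, with a log2 difference of -6.73 ± 0.72 (SE, adjusted p = 1.11e-05). The Rab10os window had 80, 79 and 0 reads against 341, 1209 and 694 (adjusted p = 0.0155), and the Gm5458 window 124, 55 and 37 against 199, 545 and 295 (adjusted p = 0.0183). Reads in repeats can come from many copies, so a position within such a window is uncertain.

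None of the 222 non-repeat shared windows passed the adjusted threshold in limma (lowest adjusted p = 0.14), and 13 had an unadjusted p under 0.05. edgeR called 1 of the 245 windows, and DESeq2 called 8, of which 6 were repeat windows and the other two lay at Usp44 (higher in NeuN+) and near Foxl2os (higher in NeuN-). The libraries of the fractions did not overlap at 26 non-repeat windows with NeuN+ above and 4 with NeuN- above. Over all 245 windows these numbers were 27 (11%) and 11 (4.49%). By the looser rule of the study, an unadjusted p under 0.05 and a log2 difference over 0.5, 13 windows were higher in NeuN+ (5.31%) and 8 in NeuN- (3.27%), repeat windows included. The median log2 difference (NeuN+ minus NeuN-) was 0.54 with the scaling used here, 0.41 with TMM factors, 0.14 in DESeq2 and 0.20 when windows over 1% of the reads were left out of the scaling, so single differences are to be read against this shift. The median standard error of a difference was 0.93 on the log2 scale.

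**Figure D2:**
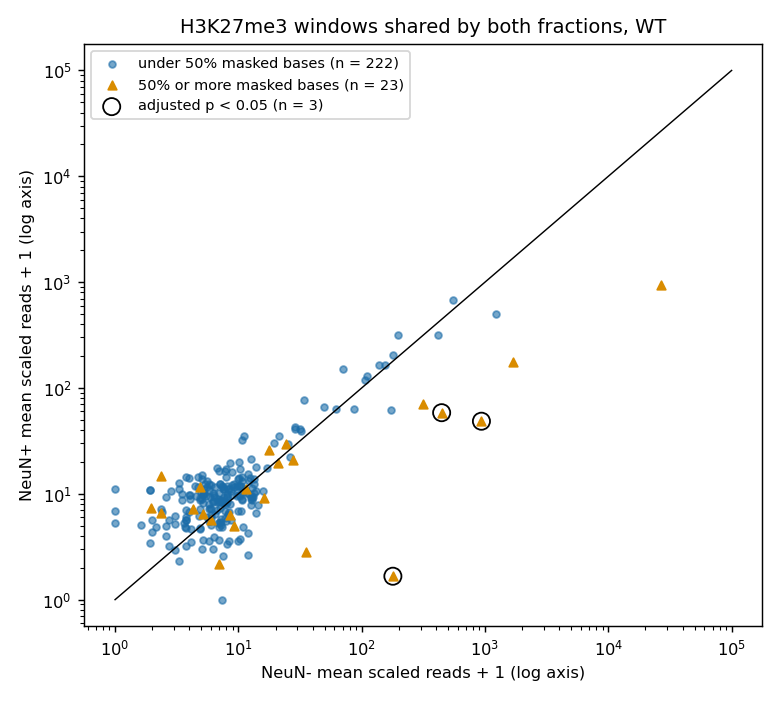
Mean scaled reads plus 1 at each of the 245 shared H3K27me3 windows in NeuN- (horizontal, log axis) and NeuN+ nuclei (vertical, log axis), means of 3 WT libraries, with the line of equality. The 3 circled windows with an adjusted p under 0.05 are repeat windows below the line, and 168 of the 222 non-repeat windows have a log2 difference above 0.

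The 5 non-repeat windows with the smallest p in each direction are given as values, since none passed in limma. DESeq2 called Usp44 (adjusted p = 0.0289) and Foxl2os (adjusted p = 0.0481). Without NeuN- replicate 1, limma called Gm8579 (adjusted p = 0.0384) and Kctd16 (adjusted p = 0.00825). At the promoter of Usp44, a deubiquitinase of histone H2B, the NeuN+ libraries had 9, 14 and 11 reads and the NeuN- libraries 0, 0 and 0 (adjusted p = 0.14). At the promoter of Cldn5, a tight junction protein of brain endothelium, there were 9, 11 and 15 reads against 0, 0 and 2 (adjusted p = 0.268). Both windows were higher in every NeuN+ library than in any NeuN- library. Windows at Lars2 (42, 33 and 51 against 5, 21 and 0 reads) and Gm8579 (47, 24 and 47 against 11, 7 and 0) were likewise separated, and Kctd16 was not (92, 52 and 146 against 41, 10 and 4). In the other direction, an intergenic window near Foxl2os had 4, 0 and 3 reads in NeuN+ and 7, 12 and 5 in NeuN- (log2 difference -2.33 ± 0.93 SE, adjusted p = 0.322). Intergenic windows near Nkx6-1 (7, 4 and 1 against 5, 14 and 7 reads), Tmem174 (5, 4 and 0 against 4, 8 and 8) and Nkx3-2 (8, 0 and 4 against 8, 5 and 5) and an intronic window of Meg3 (2, 3 and 0 against 5, 4 and 4) followed, with adjusted p between 0.589 and 0.612. After scaling, the groups did not overlap at these windows other than Nkx3-2.

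Most homeobox and T-box factors of the list had H3K27me3 in both fractions. Of 70 homeobox and T-box factors outside the Hox clusters, 65 had a non-repeat H3K27me3 window in at least a single fraction and 56 had one in both. Of all 13117 genes of the tables, 2586 had such a window in at least a single fraction, and 680 of these (26.3%) had one in both. At promoters, 31 of the 70 factors were marked in both tables, 12 in NeuN+ only and 11 in NeuN- only, against 24.6%, 45.9% and 29.4% of all 1441 genes with a marked promoter. Tbx20, a T-box factor of heart development, had 14, 20 and 22 promoter reads in NeuN+ and 4, 6 and 5 in NeuN-. Nkx2-4, a homeobox factor of the hypothalamus, had 11, 15 and 20 against 10, 11 and 7 reads, in windows that lay near each other without overlap. Pax9, a paired-box factor, had 10, 9 and 19 against 8, 6 and 10 reads. The 16 shared windows of this list had a median log2 difference of 0.44, against 0.54 for all non-repeat shared windows, and none was called. The peaks of the list took 400, 476 and 464 of 10000 reads in the NeuN+ libraries and 608, 373 and 464 in the NeuN- libraries, over different sets of windows.

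Other patterning genes were spread over the groups. Of all 1441 genes with a marked promoter, 24.6% were marked in both tables, 45.9% in NeuN+ only and 29.4% in NeuN- only. Of 56 GATA, Fox, Sox and basic helix-loop-helix factors, 14 had marked promoters in both tables, 8 in NeuN+ only (among them Gata4, with 9, 6 and 18 reads) and 11 in NeuN- only (among them Ptf1a, with 10, 4 and 4 reads). Among 39 genes of Wnt signalling, 8 promoters were marked in both, 4 in NeuN+ only and 10 in NeuN- only. The last included the ligands Wnt10a (7, 3 and 8 reads) and Wnt16 (4, 7 and 10) and the receptor Fzd10 (5, 9 and 4). Of 32 BMP, FGF and hedgehog genes, 8 were marked in both, 3 in NeuN+ only and 5 in NeuN- only. Of 41 Hox cluster genes, 7 had a marked promoter, 4 in NeuN+ only (Evx1, Hoxa2, Hoxb6 and Hoxd8) and 3 in NeuN- only (Hoxa7, Hoxd3 and Hoxd12), and none of these was marked at the promoter in both. With windows of any class counted, 4 genes of the list had one in both tables (Evx1, Hoxb1, Hoxb13 and Hoxc4). Hoxa2 had 10, 17 and 29 reads in NeuN+ and Hoxa7, within 1 kb of a NeuN+ window, had 5, 6 and 8 reads in NeuN-.

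**Figure D3:**
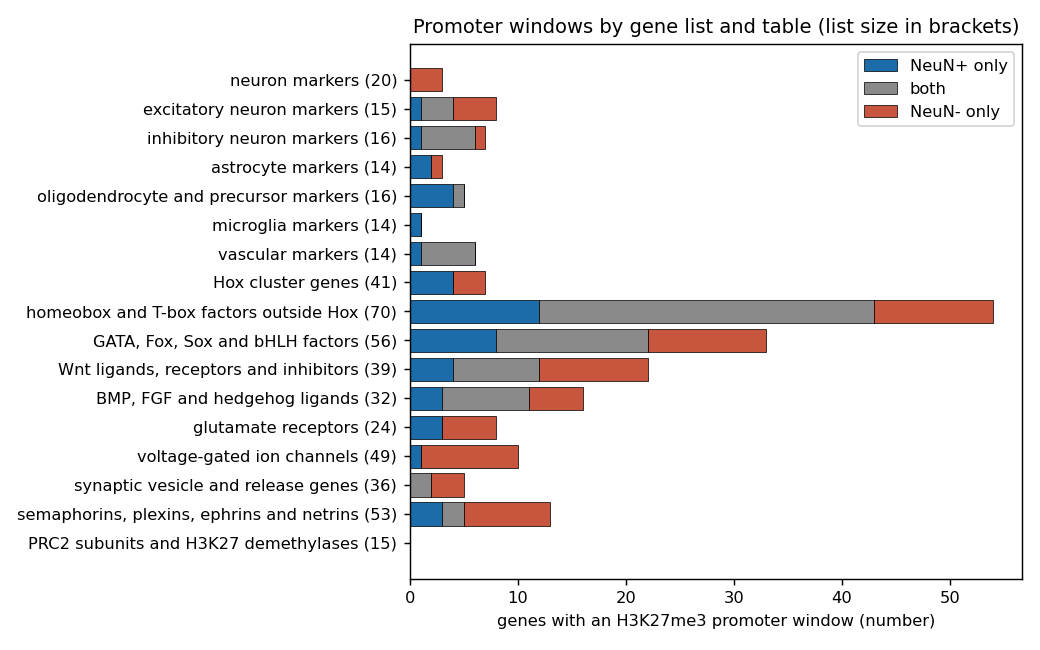
Number of genes of each list with a non-repeat H3K27me3 promoter window in the NeuN+ table only, in both tables or in the NeuN- table only (stacked bars, list size in brackets). The homeobox and T-box list has 31 genes in both tables. The list labelled voltage-gated ion channels, which also holds leak channels, has 9 genes in the NeuN- table only and 1 in the NeuN+ table only.

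A few neuron markers had H3K27me3, all of them in the NeuN- table. Of 20, 3 had a marked promoter in NeuN- nuclei (Elavl2, Nefh and Rbfox3) and 0 in NeuN+ nuclei, against 5.94% and 7.75% of all 13117 genes of the tables, with no test made. Celf4 and Nefl had NeuN- windows outside promoters, and 15 had no window in either table. Nefh, the heavy neurofilament subunit, had a promoter window at chr11:4947365-4947765 with 7, 11 and 18 reads, a level of 13.8 ± 6.89 per 10000 (SD, n = 3), and no NeuN+ window within 5 kb. Elavl2, a neuronal RNA-binding protein, had 5, 0 and 5 reads. Only Nefh had 3 or more reads in every NeuN- library. All neuron marker windows together took 49.3, 50.8 and 69.9 of 10000 reads in the NeuN- libraries.

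Rbfox3, the gene of the sorting antigen, carried 12 non-repeat H3K27me3 windows in the NeuN- table and none in the NeuN+ table. They spread over 441 kb, from an intron near the end of the gene to an intergenic window upstream of it. Summed over the windows, the NeuN- libraries had 16, 45 and 35 reads, which is 21.9, 40.8 and 42.2 per 10000 reads (mean 35.0 ± 11.3 SD, n = 3). The window near the gene start, at chr11:118908045-118908445, had 1, 5 and 6 reads, so no single window was well covered. H3K4me3 lay at 2 promoter windows of the gene in the NeuN+ table, with 29, 14 and 19 reads at an internal start and 20, 21 and 23 reads at the upstream start, and at none in the NeuN- table. No other gene of the NeuN- table had more windows than Rbfox3, Skap1 and Prdm16, with 12 each. Skap1 and Prdm16 also had 3 and 9 windows in the NeuN+ table.

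**Figure D4:**
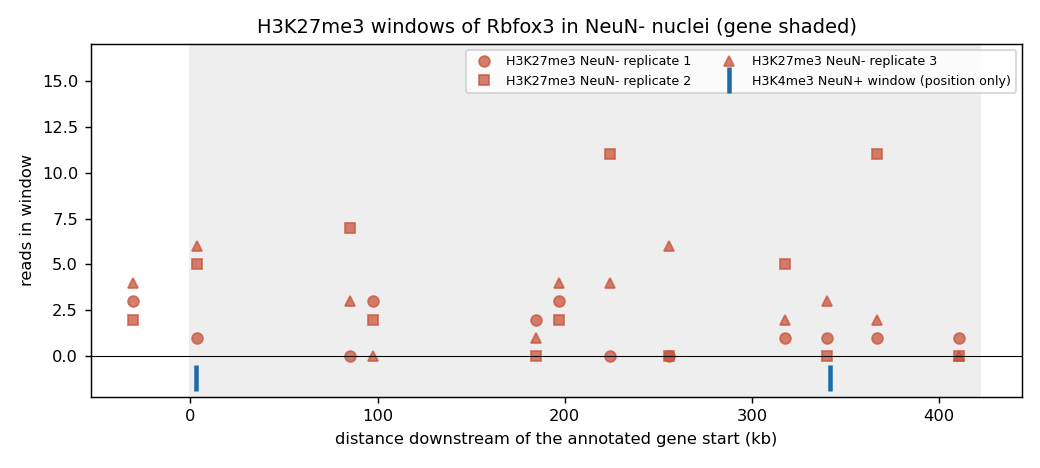
Reads (vertical) in each of the 12 non-repeat H3K27me3 windows assigned to Rbfox3 in the NeuN- table, by distance from the annotated gene start (horizontal, kb), with a symbol for each WT library and the gene shaded. Blue bars give the positions of the 2 H3K4me3 windows of NeuN+ nuclei; windows have 0 to 11 reads and spread over the length of the gene.

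Excitatory neuron markers were divided. Bcl11b, Grin2a, Grin2b and Tbr1 had marked promoters in NeuN- only, Fezf2 and Slc17a6 in both, and Prox1 in NeuN+ only. Grin2a, an NMDA receptor subunit, had 13, 10 and 0 reads, and Grin2b, another subunit, had 2, 7 and 1. Bcl11b and Tbr1 had no read in NeuN- replicates 2 and 3. Prox1, a homeobox factor of dentate granule cells, had 5, 13 and 13 reads in NeuN+ nuclei and H3K4me3 within 1 kb in both fractions. Fezf2 is a factor of neocortical projection neurons, and Slc17a6 encodes a vesicular glutamate transporter. Fezf2 had 6, 1 and 16 reads in NeuN+ and 4, 6 and 6 in NeuN- at its shared promoter window (adjusted p = 0.859 in limma).

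Of 16 inhibitory neuron markers, 5 had a marked promoter in both tables and 9 in neither. Of all genes with a marked promoter, 24.6% were marked in both. The promoters of Gad1 and Gad2, the enzymes of GABA synthesis, of the neuropeptides Npy and Sst and of Reln were marked in both tables, Calb2 in NeuN+ only and Cck in NeuN- only. At the shared Sst window there were 14, 14 and 10 reads in NeuN+ and 6, 9 and 4 in NeuN- (log2 difference 0.27 ± 0.70 SE, adjusted p = 0.88). Gad1 had 4, 13 and 16 reads in NeuN+ and 0, 0 and 1 in its neighbouring NeuN- window. Cck had 7, 8 and 6 reads in NeuN-, with H3K4me3 of NeuN+ nuclei within 1 kb.

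Ion channel promoters with H3K27me3 were mostly those of the NeuN- table. The ion channel list held 49 genes, with leak channels such as Kcnk9 beside voltage-gated ones. Of these genes, 9 had a marked promoter in NeuN- only and 1, Kcnh2, in NeuN+ only, while 39 had none. Of all genes with a marked promoter, 29.4% were marked in NeuN- only. Kcnk9, a leak channel, had 10, 4 and 10 reads, Kcnh3 had 7, 8 and 8 and Kcns2 had 5, 10 and 4. These 3 genes had 3 or more reads in every NeuN- library, had no NeuN+ window within 5 kb, and lay within 1 kb of H3K4me3 of NeuN+ nuclei. The windows of the list took 80.8, 56.2 and 50.6 of 10000 reads in the NeuN- libraries and 2.70, 4.70 and 4.66 in the NeuN+ libraries, over different sets of windows. A marked promoter was found for 8 of 24 glutamate receptors and 5 of 36 synaptic vesicle genes, against 1441 of all 13117 genes of the tables. Of 36 synaptic vesicle genes, Sv2c, Syt13 and Syt16 were marked in NeuN- only (Syt16 with 9, 9 and 3 reads) and Syt2 and Syt6 in both. Glutamate receptor promoters were marked in NeuN- only for 5 genes and in NeuN+ only for Grik1, Grin2d and Grm6. Of 53 guidance genes, 8 were marked in NeuN- only (among them Efna5 and Slit2), 3 in NeuN+ only and 2 in both.

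Of 16 oligodendrocyte and precursor markers, 4 had a marked promoter in NeuN+ only and 1 in both, where 7.75% of all genes had a marked promoter in NeuN+ nuclei. No test was made. The promoters of Nkx6-2, Olig1, Olig2 and Sox10, transcription factors of the oligodendrocyte lineage, were marked in NeuN+ only, and that of Pdgfra in both. Each of the 4 had 3 or more reads in every NeuN+ library. Nkx6-2 had 14, 14 and 16 reads (level 5.65 ± 0.83 per 10000, SD, n = 3), Olig2 had 10, 14 and 18 (5.34 ± 1.37), Olig1 had 8, 9 and 15 (3.99 ± 0.81) and Sox10 had 8, 11 and 10 (3.79 ± 1.19). No NeuN- window lay within 5 kb of any of them. H3K4me3 of NeuN- nuclei lay within 1 kb of the Nkx6-2 and Olig1 windows. The 11 other markers of the list, among them those of mature myelin, had no marked promoter in either table.

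The other non-neuronal lists differed. A marked promoter was found for 3 of 14 astrocyte, 1 of 14 microglia and 6 of 14 vascular markers, against 1441 of all 13117 genes of the tables. Of the 6 vascular genes, 5 were marked in both tables, against 24.6% of all genes with a marked promoter. Of their 5 NeuN- promoter windows, which were called over libraries of all genotypes, 0 had 3 or more reads in every WT NeuN- library. No test was made. Among 14 astrocyte markers, Fgfr3 (6, 11 and 27 reads) and Gjb6 (12, 4 and 3) were marked at the promoter in NeuN+ only, and Sox9, with 2 reads in a single library, in NeuN- only. Of 14 microglia markers only C1qc (1, 6 and 1 reads, NeuN+) had a marked promoter. Irf8, a factor of myeloid cells, had intronic windows in both tables. Of 14 vascular markers, Cldn5, Flt1, Foxc1, Sox17 and Tbx18 were marked in both tables and Acta2 in NeuN+ only. Flt1, a receptor of endothelial growth factors, had 20, 17 and 23 reads in NeuN+ and 3, 0 and 0 in NeuN- at separate windows of its promoter. None of 15 genes for PRC2 subunits and H3K27 demethylases had a marked promoter, and Jarid2 and Aebp2 had windows elsewhere.

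**Figure D5:**
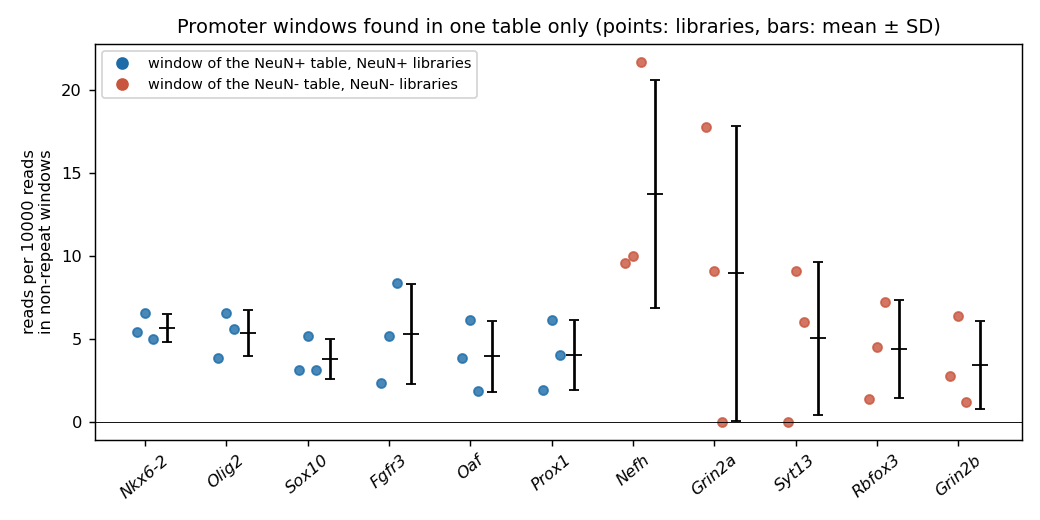
Level of H3K27me3 (reads per 10000 reads in non-repeat windows) at 11 promoter windows found in a single table, with a point for each of the 3 WT libraries of that fraction and bars for mean ± SD. The 6 NeuN+ windows (blue) lie between 1.86 and 8.38, and the 5 NeuN- windows (red) reach from 0 to 21.7.

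Oaf, a secreted protein, had a NeuN+ promoter window at chr9:43239807-43240207 with 10, 13 and 6 reads (level 3.94 ± 2.12, SD, n = 3) and none in NeuN-. H3K4me3 was found within 1 kb of it in both fractions. Promoter windows without an overlapping window of the other table were ranked by level, with at least 3 reads in every library. The strongest of the NeuN+ table were at Tbx4, Wdr86, Lox, Gata6, H2-Q10, Flt1, Foxc1, Bnc2, Skor1 and Fgf4, at mean levels of 7.52 to 9.09. The genes Tbx4, Gata6, Flt1, Foxc1 and Fgf4 also had a separate promoter window in the NeuN- table. The H2-Q10 and Skor1 windows had a NeuN- window within 1 kb. Wdr86 (24, 18 and 27 reads), Lox (29, 14 and 21), an enzyme that cross-links collagen, and Bnc2 (17, 15 and 29), a zinc finger factor, had no NeuN- window within 5 kb. The strongest of the NeuN- table were at Vwa2, Cldn3, Sim2, B230323A14Rik, Nefh, Wt1, Zfp385b, Olig3, Lrp2 and Dlgap2, at 12.0 to 16.1. Wt1 also had a separate promoter window in the NeuN+ table. The windows at Vwa2, Cldn3, Sim2 and B230323A14Rik had a NeuN+ window within 1 kb, and that at Olig3 had one within 5 kb. Nefh, Zfp385b (15, 8 and 9 reads), Lrp2 (12, 11 and 8), an endocytic receptor, and Dlgap2 (15, 9 and 6), a postsynaptic scaffold protein, had no NeuN+ window within 5 kb, and all 4 lay within 1 kb of H3K4me3 of NeuN+ nuclei.

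Among the groups with H3K27me3, promoters marked in NeuN- nuclei alone most often had H3K4me3 in NeuN+ nuclei, though less often than all genes of the tables. By promoter windows, 662 genes were marked in NeuN+ only, 355 in both and 424 in NeuN- only. A promoter peak of H3K4me3 in NeuN+ nuclei was found for 35.2%, 33.8% and 69.3% of them, against 85.0% of all 13117 genes named in any of the 6 tables. In NeuN- nuclei the shares were 9.21%, 5.63% and 9.91%, against 23.0%. The 13117 genes are only those with a peak in any of the 6 tables, and 11146 of them had the NeuN+ H3K4me3 promoter peak. The 85.0% is thus largely set by the make-up of this gene set and is not a share of all mouse genes. With 3 or more reads in every WT library, the NeuN+ H3K4me3 shares were 37.7% of 374 NeuN+ genes and 72.7% of 99 NeuN- genes. With no window of the other table within 5 kb they were 36.7% of 610 and 76.2% of 366. These shares are descriptions of peak lists with no replicate test.

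Among the groups with H3K27me3, promoters marked in both most often had Suz12. A Suz12 promoter peak in NeuN+ nuclei was found for 42.8% of the genes marked in both, 18.3% of those marked in NeuN+ only and 8.49% of those marked in NeuN- only, against 3.11% of all 13117 genes. Of the 408 genes with such a peak, 152 were marked in both, 121 in NeuN+ only and 36 in NeuN- only. In NeuN- nuclei, where the Suz12 table had 312 peaks, it was found for 4.23% of the genes marked in both, 0.302% of those marked in NeuN+ only and 0.472% of those marked in NeuN- only, against 0.252% of all genes. By windows, 41.2% of the shared windows lay within 1 kb of a NeuN+ Suz12 peak, against 6.55% of the NeuN+ and 10.5% of the NeuN- windows.

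The level of H3K4me3 was compared at promoters with H3K4me3 in both fractions. Of 2998 shared H3K4me3 windows, 3 passed an adjusted p of 0.05 in limma (0.1% of those tested), all higher in NeuN-, with a median log2 difference of 0.33 over 2887 non-repeat promoter windows. Genes with H3K27me3 in NeuN- only had a median of 0.65 over 35 windows, of which 26 were above 0. Genes with H3K27me3 in NeuN+ only had -0.29 over 50 windows, of which 12 were above 0, against 71.4% of all promoter windows. By the rule of the study, an unadjusted p under 0.05 and a log2 difference over 0.5, 7 of the 35 were higher in NeuN+ and 0 in NeuN-, and 0 of the 50 were higher in NeuN+ and 2 in NeuN-. Over all 2998 windows this rule gave 5.74% higher in NeuN+ and 2.2% higher in NeuN-, and the libraries did not overlap in 14.4% with NeuN+ above and 4.54% with NeuN- above. The median over all windows was 0.31 here and -0.33 with scaling by all reads in the table, so the sign of a single median depends on the scaling. Genes with H3K27me3 in both had a median of -0.04 over 17 windows, of which 8 were above 0, and by this rule 0 were higher in NeuN+ and 4 in NeuN-. The adjusted threshold was passed by 0 of the 35, 0 of the 50 and 1 of the 17 windows, at the promoter of Zc3h7a (35, 25 and 22 reads in NeuN+ against 52, 59 and 29 in NeuN-, log2 difference -2.11 ± 0.28 SE, adjusted p = 0.0385 in limma). The H3K27me3 window of Zc3h7a in NeuN- nuclei (97, 55 and 46 reads) was among those with over 1% of the reads of a library. With repeat windows left out of the fit, 0 H3K4me3 windows passed. No test was made of the difference between these medians.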

How the data were processed

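Nuclei of pooled hippocampi were sorted on NeuN, and H3K27me3 ChIP libraries were sequenced. Per the labels, tools included Bowtie2 2.3.5.1, SICER, DiffBind 3.10.1, edgeR 3.42.4 and ChIPseeker 1.36. Reads were aligned to GRCm38, peaks called with epic2 and counted over 401 bp windows. Whether duplicate reads were removed, blacklists applied or input subtracted is not given in the sources used here. The values deposited by the authors are signal, that is reads times a factor for each library, and whole reads were recovered from them (100% whole within 0.01). Annotations are those of the authors. Antibody and fraction of a column come from its table.

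Windows that overlapped one to one were scaled by the reads in shared non-repeat windows, filtered at 10 reads over the 6 libraries and tested with limma 3.58.1 on log2(scaled reads + 1), Benjamini-Hochberg adjusted over all of them. Class shares were compared with exact permutation tests. The fit was tested on simulated data in which changed windows were drawn only from those under 1% of the reads. A first simulation, which drew them from all windows, gave more false calls and was replaced, so the test does not cover changes in the high-signal windows that dominate the scaling total. Named shared windows were the 5 of smallest p per direction, and named single-table promoter windows the 10 of highest level with 3 or more reads in every WT library, besides list members, Rbfox3 and Oaf. Members and lists were chosen with earlier results of these data known. Some genes of the lists are counted but not reported by name here. Alternatives used edgeR 4.0.16 and DESeq2 1.42.0.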

Additional observations from a re-analysis of the deposited data

How the results depend on the processing

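The count of shared H3K27me3 windows called (3) was 7 with a pseudocount of 5, 1 with scaling by all reads in the table, TMM factors, values as deposited or edgeR, 8 with DESeq2, and 0 with all 24 libraries or without repeat windows. It was 169 when repeat windows entered the scaling, which also gave Nkx6-1 a difference of 0.33 and Nkx3-2 one of 0.0005, reversed in direction. The deviations of same-numbered libraries from their fraction's mean correlated at -0.0887, -0.0307 and 0.0881 over 222 windows, so the numbers were not treated as pairs, and whether they shared a sort was not tested. With the replicate block it was 5, and 1 with TMM factors and the block, a setting chosen after seeing the data. Leaving out a library gave 1 to 10: 10 without NeuN- replicate 1 (3 of them higher in NeuN+), 5 without NeuN+ replicate 1 or 3, 2 without NeuN+ replicate 2 and 1 without NeuN- replicate 2 or 3. For H3K4me3 the count of 3 was 0 with a pseudocount of 0.5, with robust variances or without repeat windows, 9 with a pseudocount of 5, 252 with repeat windows in the scaling, 5 with TMM factors or without windows over 1% of the reads, 2237 with values as deposited, 22 with DESeq2, 13 with the replicate block (11 with TMM and the block), 14 with 24 libraries and 0 to 12 without a library (12 without NeuN+ replicate 2, 5 without NeuN+ replicate 1, 0 without any single NeuN- library).

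Class differences (NeuN+ minus NeuN-, percentage points) also changed. For promoters, -4.87 became 20.7 with repeat windows and -18.1 without windows over 1% of the reads, and ranged from -9.46 to 1.77 without a library, positive without NeuN- replicate 1. For gene bodies, -1.27 became -44.3, 5.90 without windows over 1% and 12.6 with 3 or more reads in every library, and ranged from -5.98 to 1.72, positive without NeuN- replicate 2 or 3. For distal windows, 6.14 became 23.6, 12.2 and -11.7 in these settings, and ranged from 4.21 to 7.74. Windows in a single table (3483 and 1377) numbered 1416 for NeuN+ and 207 for NeuN- with 3 or more reads in every library. With that read minimum and a library left out they numbered 1416 to 1934 and 207 to 381, the highest without NeuN+ replicate 2 and NeuN- replicate 2. At 5 kb, 831 NeuN- windows remained. The cause was not tested. At 2 to 6 reads in the median window, a missing window does not show a missing mark.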

Other observations

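Some genes had many H3K27me3 windows, promoter windows included. Sox6, a SoxD factor, had 25 non-repeat windows over 759 kb with 102, 88 and 205 reads in the NeuN+ libraries, and 1 window in the NeuN- table. Sall1, a zinc finger factor, had 19 windows over 635 kb (58, 80 and 125 reads), Tshz2 had 18 over 543 kb (98, 58 and 106) and Maf, a leucine zipper factor, had 17 over 773 kb (79, 55 and 104), each with 0 windows in the NeuN- table. Ptprm, a receptor tyrosine phosphatase, had 15 and Abtb3 and Adra1b, an adrenergic receptor, had 12 each, again with 0 in the NeuN- table. Clusters of the NeuN- table that also had NeuN+ windows were Casz1, with 11 windows (38, 70 and 22 reads) against 8, and Fendrr, with 7 (18, 20 and 10) against 7. These genes were chosen after their values were seen, and the smaller NeuN- table limits how many windows a gene can have there.

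Single windows with high levels outside promoters, also chosen after their values were seen, included Fcgr3, an Fc receptor of myeloid cells (20, 20 and 22 reads), and Dock2, a guanine nucleotide exchange factor of immune cells (8, 21 and 22), in NeuN+ nuclei, with no NeuN- window within 5 kb. In NeuN- nuclei they included a window near Zic4, a zinc finger factor (6, 14 and 6 reads), with no NeuN+ window within 5 kb.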
